A study of Caenorhabditis elegans with 18 samples.

Results

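The comparison described here sets Caenorhabditis elegans embryos that carry uaf-1(n4588) together with rbm-5(n5132) against embryos that carry rbm-5(n5132) alone. Its members were chosen by strain label, and they are 6 of the 18 libraries of the series, 3 of the double mutant and 3 of rbm-5(n5132). Both strains have the n5132 mutation, so the labelled difference between them is the presence of uaf-1(n4588). Each genotype is 1 strain, so any other difference between the strains cannot be told apart from it. The other 12 libraries come from uaf-1(n4588), wild type N2, the double mutant of uaf-1(n4588) with rbm-5(n5119), and rbm-5(n5119), again with 3 each. All worms were grown at 20 °C, and total RNA came from eggs obtained by bleaching synchronized adults. The labels neither stage the embryos nor tell separate cultures from repeat libraries of 1 culture, so p-values measure only the spread between these libraries, which may be technical. In this text the double mutant means uaf-1(n4588); rbm-5(n5132) unless n5119 is named.

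The gene uaf-1 encodes the large subunit of U2AF, which binds the polypyrimidine tract in front of a 3′ splice site and helps bring the U2 snRNP to the branch point. The gene rbm-5 encodes an RNA-binding protein of a family whose human members act in splice site pairing and in alternative splicing. Changes in the recognition of 3′ splice sites can appear as a switch between neighbouring acceptors, as skipping of an exon or as retention of an intron, and the series asks how RBM-5 modifies splicing that depends on U2AF.

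Values are FPKM, which relate fragments to transcript length and to mapped fragments, listed for transcript starts, transcript ends and alternative splicing events of each library. Read counts were not used here and depth is unknown, so no counting interval is given, and a value of exactly 0 can be a failed estimate and is called listed at 0. The replicate 1 libraries stood apart. Summed start FPKM was 1.38e+06 in the double mutant and 1.25e+06 in rbm-5(n5132) for replicate 1, against 8.04e+05 to 1.14e+06 in the other 4 libraries, and the 10 highest starts held 21.3 to 24.3% of it, against 7.57 to 11.8%. Where a splicing call ended with replicates 2 and 3 only, that value is given beside it, and calls that could not be tested there are named. Across 12319 genes, which are no independent replicates, Spearman's rho was 0.869 to 0.917 within a strain and 0.883 to 0.903 between the strains. Maternal and early zygotic embryo markers were detected in all 6 libraries, whereas the 7 adult soma markers summed to 0.544 to 0.749 FPKM in the double mutant and 0.339 to 4.57 FPKM in rbm-5(n5132), and the sperm markers to at most 1.54 FPKM in the double mutant and 0.895 FPKM in rbm-5(n5132). In bulk embryos, fewer cells of a type and less RNA per cell cannot be told apart.

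The mutated genes were transcribed in both strains. The level of uaf-1 (chromosome III, 1062794 to 1076555) was 141, 178 and 210 FPKM in the double mutant and 156, 173 and 164 FPKM in rbm-5(n5132), and the strains overlapped (log2 0.08 ± 0.25 SE, adjusted p = 0.9995 by limma). The level of rbm-5 (chromosome I, 6215727 to 6219912) was 91.7 and 18.1 FPKM in the 2 double mutant libraries that list it alone and 64.6, 19.2 and 21.4 FPKM in rbm-5(n5132). An rbm-5 intron, 6215988 to 6216058, was retained at a share of 1 in every library of both strains that lists it, and none of the 12 libraries without n5132 lists it, which checks the n5132 label of 5 of the 6 libraries. The listing was not tested. RNA levels do not check the uaf-1(n4588) label, because uaf-1 RNA did not separate the strains. An exon-like segment of uaf-1 at 1068036 to 1068251, which matches no annotated exon, had a share of 0.166, 0.118 and 0.123 in the double mutant and 0.255, 0.335 and 0.241 in rbm-5(n5132). These shares did not overlap, but the difference did not pass the test (log2 −1.26 ± 0.38, adjusted p = 0.342).

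Splicing of a small set of genes differed between the strains. For each event, a share was the FPKM of the form with the exon, retained intron or given exon end, divided by that FPKM plus that of the alternative forms, and the test used log2((form + 1) / (alternative + 1)). Of 2476 tested events, 18 passed an adjusted p of 0.05, or 0.727%, with a higher share in the double mutant for 6 (0.242%) and a lower share for 12 (0.485%). They lie in 16 genes. At an unadjusted p under 0.05 there were 195 events, or 7.88%, with a higher share for 95 (3.84%) and a lower share for 100 (4.04%). In each of the 18 events the libraries of one strain all lay on one side of those of the other, which held for 18.6% of all tested events. The calls of sao-1, both spe-48 events, tnt-3 and the longer let-653 exon were kept under every alternative tried, and no call changed its sign under any. One form was listed at 0 in every library of 1 strain for 14 of the 18. There the size of the log2 value depends on the added 1 FPKM, and the share is the plainer measure.

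**Figure D1:**
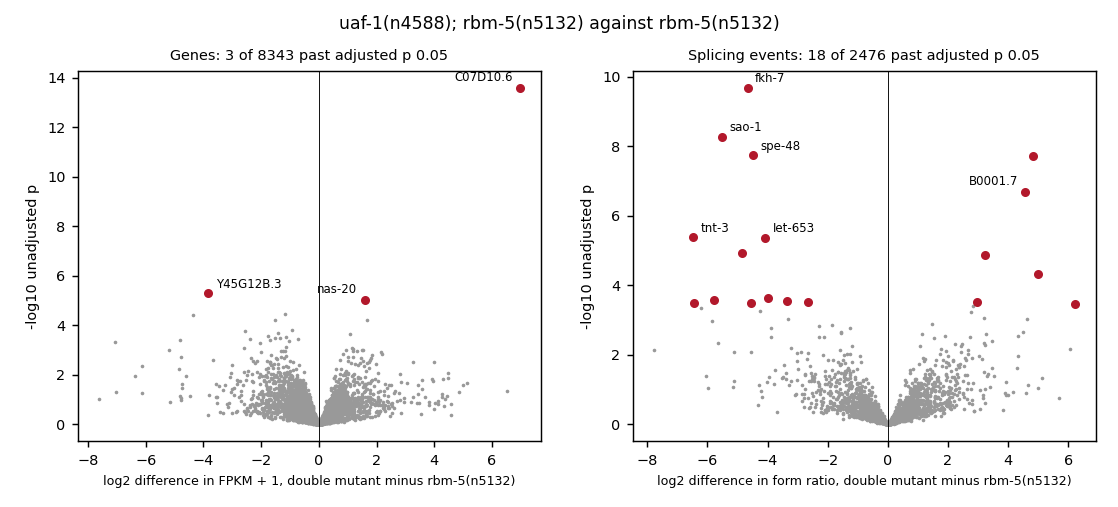
Each point is 1 gene (left) or 1 splicing event (right), with the fitted log2 difference, double mutant minus rbm-5(n5132), on the x axis and −log10 of the unadjusted limma p on the y axis. Red points passed an adjusted p of 0.05, 3 of 8343 genes and 18 of 2476 events.

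Alternative acceptors, the exon starts chosen at 3′ splice sites, gave the event with the smallest p. In fkh-7, which encodes a forkhead transcription factor, the exon at chromosome IV, 5608312 to 5608444 on the plus strand can instead start at 5608369. The shorter form had 15.7, 14.2 and 15.9 FPKM in the double mutant and was listed at 0 in each rbm-5(n5132) library. The longer form had 29.5, 18.5 and 27.7 FPKM in the double mutant and 40.8, 31.8 and 46.4 FPKM in rbm-5(n5132). The 57-base stretch between the starts was thus skipped in part of the transcripts of every double mutant library and in no listed transcript of rbm-5(n5132). The share of the longer form was 0.618 ± 0.047 in the double mutant and 1 in each rbm-5(n5132) library (SD, n = 3 each), with log2 −4.66 ± 0.30 SE and adjusted p = 5.19e-07. Summed starts of fkh-7 averaged 40.5 FPKM in the double mutant and 33.5 FPKM in rbm-5(n5132), and the gene level did not pass the test. The call ended when all other listed forms of the locus were taken as the alternative (adjusted p = 0.0910), although the log2 value stayed at −4.66.

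In spe-48, named for a spermatogenesis defect, the pattern ran the other way. The exon at chromosome I, minus strand, 1953349 to 1953549 was listed at 0 in each double mutant library and at 9.32, 26.4 and 13.98 FPKM in rbm-5(n5132). The form that extends 75 bases further to 1953624 had 41.7, 46.2 and 45.2 FPKM in the double mutant and 25.4, 31.8 and 31.8 FPKM in rbm-5(n5132). Its share was therefore 1 in each double mutant library and 0.617 ± 0.074 in rbm-5(n5132) (log2 4.83 ± 0.43, adjusted p = 1.20e-05). These 2 events share their forms and are not independent. In B0001.7 (chromosome IV, minus strand, 12152322 to 12152527) the longer of 2 acceptor forms that differ by 12 bases had a share of 1 in each double mutant library and 0.643 ± 0.037 in rbm-5(n5132) (log2 4.57 ± 0.49, adjusted p = 0.000103). The longer form had 27.9, 46.7 and 51.6 FPKM in the double mutant and 18.1, 35.01 and 26.3 FPKM in rbm-5(n5132), while the shorter form was listed at 0 in each double mutant library and was at 10.99, 16.08 and 16.16 FPKM in rbm-5(n5132). With all other forms of the locus as the alternative the adjusted p was 0.593.

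The neuropeptide gene flp-1, a source of FMRFamide-like peptides, also used the longest of its listed acceptor forms more often. For the exon at chromosome IV, plus strand, 9145488 to 9145607, the share was 1, 1 and 0.847 in the double mutant and 0.417, 0.378 and 0.433 in rbm-5(n5132). The other forms start 33 and 99 bases downstream and together held more than the longest one in every rbm-5(n5132) library. The test gave log2 4.98 ± 0.84 and adjusted p = 0.0120, and the call ended without replicate 2 of either strain (adjusted p = 0.0591 without that of the double mutant and 0.0502 without that of rbm-5(n5132)) and with replicates 2 and 3 only (0.134). It also ended with all other forms of the locus as the alternative (adjusted p = 0.448), with only the contrast's libraries fitted (0.240) and with a pseudocount of 0.1 (0.0742). In lro-1 (chromosome X, plus strand, 6273231 to 6273391) the form was listed at 0 in each double mutant library and held a share of 0.165, 0.111 and 0.115 in rbm-5(n5132) (log2 −3.98 ± 0.81, adjusted p = 0.0471). That call ended without any 1 of the 6 libraries (adjusted p = 0.0934 to 0.133) and with replicate number added as a block (0.0521), and with all other forms of the locus the adjusted p was 0.564.

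Skipped exons gave 6 calls, all with less inclusion in the double mutant. The exon of sao-1, which encodes a GYF domain protein, lies at chromosome V, plus strand, 13964759 to 13964821, and has 63 bases. Transcripts with it were listed at 0 in each double mutant library and at 52.4, 34.0 and 15.8 FPKM in rbm-5(n5132). Transcripts without it were at 116, 99.9 and 109 FPKM in the double mutant and 74.5, 71.3 and 75.6 FPKM in rbm-5(n5132). Skipping was thus higher in every double mutant library than in any rbm-5(n5132) library. The share of inclusion was 0 in each double mutant library and 0.303 ± 0.12 in rbm-5(n5132) (log2 −5.53 ± 0.45, adjusted p = 6.71e-06). The event lies in a locus that also carries the name R10D12.13.

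Troponin T anchors the troponin complex to tropomyosin in muscle, and tnt-3 encodes one of its forms. Its exon at chromosome X, minus strand, 7938516 to 7938662, 147 bases, was listed at 0 in each double mutant library and at 56.8, 42.3 and 45.6 FPKM in rbm-5(n5132). The form without it had 63.7, 45.5 and 41.5 FPKM in the double mutant and 35.8, 21.2 and 24.9 FPKM in rbm-5(n5132). The share of inclusion was 0 in each double mutant library, against 0.642 ± 0.027 in rbm-5(n5132), a fully separated pair of groups (log2 −6.48 ± 0.90, adjusted p = 0.00154). The annotation holds 4 transcripts with the exon and 4 that skip it. Body wall muscle markers summed to 1541 to 5760 FPKM in the double mutant and 1741 to 5097 FPKM in rbm-5(n5132), with 17 of 18 listed markers above 0 in each strain. The summed levels overlapped, and their part in the tnt-3 result was not tested.

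The gene let-653 encodes a zona pellucida domain protein of the apical extracellular matrix that lines the excretory duct. An exon at chromosome IV, plus strand, is listed with 2 ends, 11888697 to 11889173 and 11888697 to 11888816. The longer exon had a share of 0.521, 0.505 and 0.567 in the double mutant and 1 in each rbm-5(n5132) library (log2 −4.07 ± 0.57, adjusted p = 0.00154). The shorter exon had a share of 0.306, 0 and 0.326 in the double mutant and 1 in each rbm-5(n5132) library (log2 −4.84 ± 0.74, adjusted p = 0.00374). Both are set against the same skipped form, at 10.7, 9.02 and 9.84 FPKM in the double mutant and listed at 0 in each rbm-5(n5132) library, so these events are not independent. The call of the shorter exon ended with replicates 2 and 3 only (adjusted p = 0.0793).

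The other called exon events were nearer to the threshold, all at an adjusted p of 0.0471. An exon of F49E2.5 (chromosome X, 9554903 to 9555325) had a share of 0, 0.312 and 0.296 in the double mutant and 1 in the 2 rbm-5(n5132) libraries with a value. An exon of C46C11.4 (chromosome X, 4646697 to 4646773) had a share of 0.241, 0.198 and 0.232 in the double mutant and 0.865 and 0.697 in the 2 rbm-5(n5132) libraries that list it. Its 77 bases are not a multiple of 3, and no annotated transcript skips it. Adjacent exons were skipped together in C56A3.6 (chromosome V, 13554888 to 13555180), where the share with both exons was 0.325, 0 and 0 in the double mutant and 1, 1 and 0.676 in rbm-5(n5132). In D1054.9 (chromosome V, 10786916 to 10787958) a group of 3 exons had a share of 0, 0 and 0.230 in the double mutant and 1 in each rbm-5(n5132) library. All of these shares were lower in the double mutant without overlap. The calls of F49E2.5 and C46C11.4 ended with the replicate block (adjusted p = 0.109 and 0.130). Leaving out 1 library ended the call of C46C11.4 in 4 cases (adjusted p = 0.0502 to 0.157), of C56A3.6 in 4 cases (0.146 to 0.164, without replicate 1 or 2 of rbm-5(n5132) or replicate 2 or 3 of the double mutant) and of D1054.9 in all 6 cases (0.0636 to 0.162). With replicates 2 and 3 only, the adjusted p was 0.0793 for C56A3.6 and 0.470 for D1054.9, and F49E2.5 and C46C11.4 could not be tested. For C46C11.4 the libraries whose loss ended the call were replicate 2 of rbm-5(n5132), which does not list the event, and each library of the double mutant.

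Among retained introns, the clearest difference was in brd-1, the BARD1 orthologue, which pairs with BRCA1 in a ubiquitin ligase of the DNA damage response. Transcripts that retain the 42-base intron at chromosome III, minus strand, 6887379 to 6887420 were at 24.5, 24.4 and 34.7 FPKM in the double mutant and 9.03, 10.4 and 9.59 FPKM in rbm-5(n5132). Spliced transcripts were at 8.73, 12.4 and 7.49 FPKM in the double mutant and 30.8, 37.8 and 38.1 FPKM in rbm-5(n5132). Both forms were detected in all 6 libraries, and the retained form was the larger one in each double mutant library and the smaller one in each rbm-5(n5132) library. The share retained was 0.741 ± 0.080 in the double mutant and 0.214 ± 0.013 in rbm-5(n5132) (log2 3.23 ± 0.46, adjusted p = 0.00374). With replicates 2 and 3 only the adjusted p was 0.117.

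An intron of ipla-3, a phospholipase A2 family gene, at chromosome V, 20727306 to 20727360, had a share retained of 1 in each double mutant library and 0.524 and 0.655 in the 2 rbm-5(n5132) libraries that list it (log2 2.96 ± 0.56, adjusted p = 0.0471). The call ended with the replicate block (adjusted p = 0.0550), with replicates 2 and 3 only (0.0793) and without any 1 double mutant library (0.130 to 0.145). A segment of F07A11.4 (chromosome II, 11609305 to 11609424) went the other way. It was spliced out in part of the double mutant transcripts, with a share retained of 0.882, 0.705 and 0.662 in the double mutant and 1 in each rbm-5(n5132) library (log2 −2.67 ± 0.55, adjusted p = 0.0471). The annotation has no intron there, and 3 transcripts hold these 120 bases as exon. Its call ended without any 1 library except replicate 1 of the double mutant (adjusted p = 0.0502 to 0.162) and with replicates 2 and 3 only (0.0793).

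The remaining call was a donor choice, that is, an alternative exon end at a 5′ splice site. In pqn-87, which encodes a protein with a prion-like glutamine and asparagine rich domain, the form at chromosome II, minus strand, 12215830 to 12216191 had 49.4, 48.2 and 53.0 FPKM in the double mutant and listed at 0 in each rbm-5(n5132) library. In the double mutant its share was 0.354, 0.298 and 0.380 (log2 6.21 ± 1.33, adjusted p = 0.0471), and the call ended without any 1 of the 6 libraries (adjusted p = 0.120 to 0.146).

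**Figure D2:**
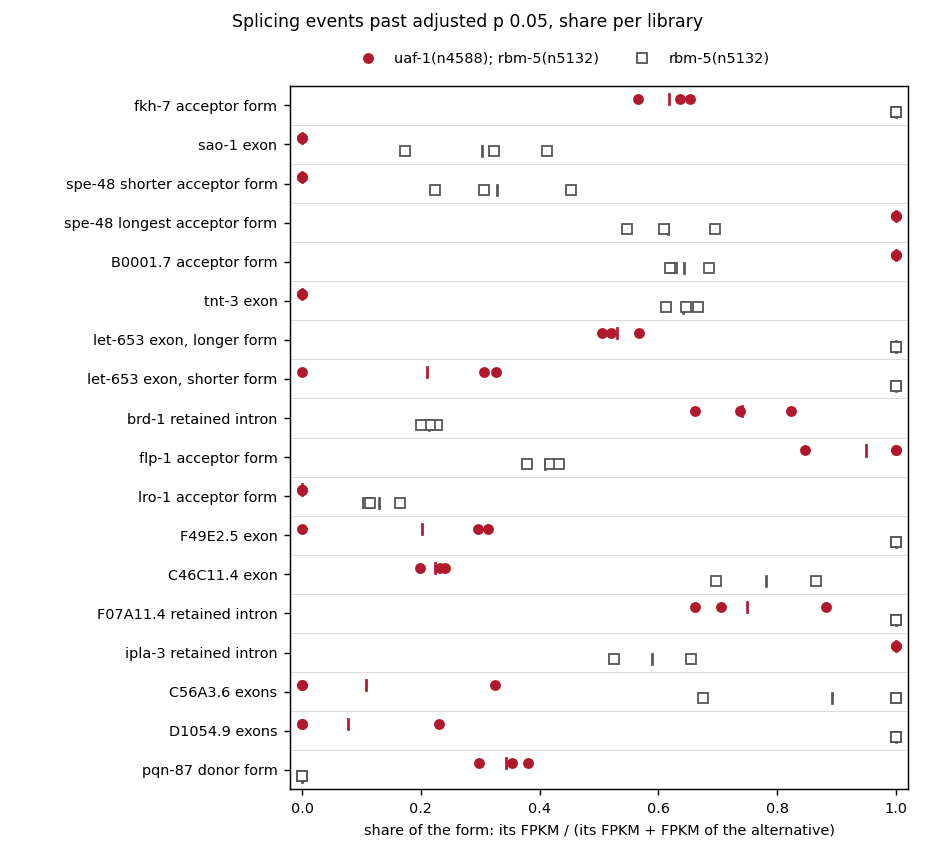
The x axis is the share of the named form, from 0 to 1, and each row is 1 of the 18 called events. Filled red points are double mutant libraries, open squares are rbm-5(n5132) libraries, and short bars are strain means. The strains do not overlap in any row, and for tnt-3 the points lie at 0 against 0.614 to 0.666.

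Of the 18 called events, 16 add or remove a multiple of 3 bases, and the 15 exon events lie wholly in coding sequence, a share that was not computed for all tested exon events. A multiple of 3 was common among all tested events too, at 82.9% of acceptor events with 1 alternative form, 75.5% of skipped exons, 82.1% of exon groups and 46.9% of retained introns, and nothing is read from the count among the called events. For 16 of the 18 events a gene level could be tested, and its log2 difference lay between −0.59 and 0.27 with no call.

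The same mutation was also compared in embryos without n5132. The strain means behind the uaf-1(n4588) effect in wild type and in rbm-5(n5119) come from libraries outside the n5132 difference. The spread in every test came from all 18 libraries, however, so calls in these backgrounds are not independent. The linked events of spe-48 and of let-653 are each counted below. Of the 18 called events, 16 could be tested in wild type. All 16 had the same sign there, against 58.0% of all 2055 events tested in both. For F07A11.4 (log2 −0.58) that sign followed only the level of its retained form. The share of that form was 1 in every wild-type and uaf-1(n4588) library. Of the 16, 11 were called in wild type, as were 16 of the 2055. In the n5119 background 15 of 16 had the same sign, against 57.1% of 2022. Of these 16, 10 were called there, as were 18 of the 2022. The fkh-7 event had a log2 effect of −4.66 with n5132, −4.82 in wild type and −5.22 with n5119. The tnt-3 exon had −6.48, −5.40 and −4.89 in the same order of backgrounds, and the brd-1 intron 3.23, 2.71 and 2.42.

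The difference between effects was tested itself. No event of 2071 passed for n5132 against wild type (0%), with 77 at an unadjusted p under 0.05, or 3.72%. For n5132 against n5119, 1 of 2043 passed (0.0489%), and 73 had an unadjusted p under 0.05, or 3.57%. Among the called events, only F07A11.4 had the other sign with n5119, at 0.34, a value that followed the level of its retained form alone. Its segment was retained at a share of 1 in every wild-type, uaf-1(n4588) and rbm-5(n5119) library and in the 2 listed libraries of the n5119 double mutant, so that only the n5132 double mutant held the spliced form. Its difference in effect did not pass the adjusted threshold (log2 −2.09 against wild type, unadjusted p = 0.0193, and −3.01 against n5119, unadjusted p = 0.00307). The event that passed was an acceptor form of B0207.5 (chromosome I, 5934187 to 5934321), where both forms were under 1 FPKM in all 6 libraries of the n5132 comparison, so it describes the n5119 strains (log2 −4.64, adjusted p = 0.0131, and 0.127 with the replicate block).

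**Figure D3:**
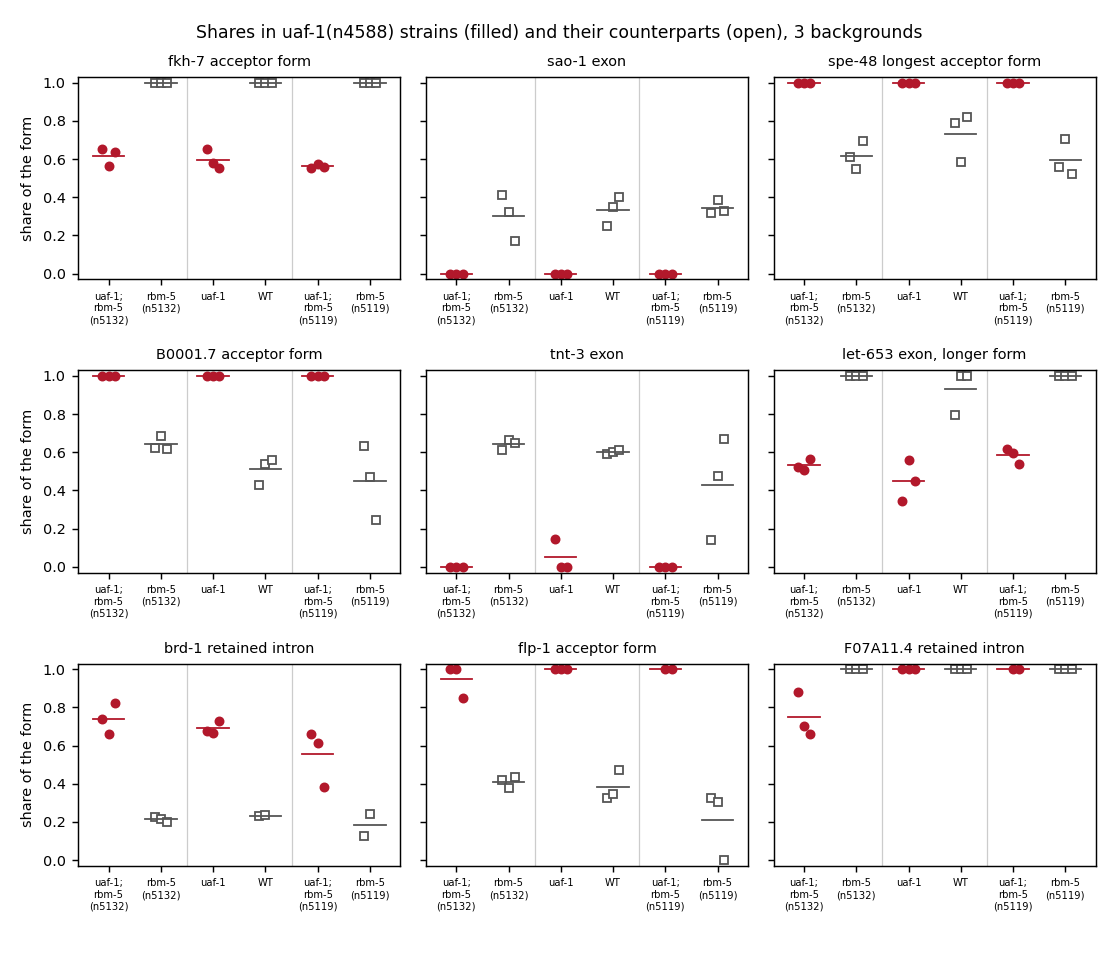
Share of the named form per library for 9 called events, with strains that carry uaf-1(n4588) filled and their counterparts open, in the n5132, wild-type and n5119 backgrounds from left to right; bars are strain means. The F07A11.4 segment is below 1 only in the n5132 double mutant, at 0.662 to 0.882.

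Further events are given as values, since none passed. They have the smallest unadjusted p among events listed in all 6 libraries without overlap. An intron of coel-1, which encodes a tubulin cofactor E-like protein, was retained at a share of 1, 0.862 and 1 in the double mutant and 0.681, 0.689 and 0.734 in rbm-5(n5132) (adjusted p = 0.0527). The rft-2 exon at chromosome V, 4447028 to 4447066, in a riboflavin transporter gene, had 0.337, 0.400 and 0.330 in the double mutant and 0.205, 0 and 0 in rbm-5(n5132) (adjusted p = 0.0681). An exon of jmjd-1.2, a histone demethylase gene, was listed at 0 in each double mutant library and had 0.234, 0.118 and 0.104 in rbm-5(n5132) (adjusted p = 0.0950). These values sit next to the threshold, and no direction is claimed for them.

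The unc-43 exon at chromosome IV, 10327602 to 10327715, in the gene for CaMKII, had a share of 0.593, 0.627 and 0.533 in the double mutant and 1 in each rbm-5(n5132) library (log2 −5.64 ± 1.67, adjusted p = 0.241). Wild type had 0.645, 0.577 and 1, so libraries with both shares occur without either mutation. An intron of lin-9, a subunit of the DREAM complex, had a share of 1 in each double mutant library and 0.770, 0.783 and 0.806 in rbm-5(n5132) (adjusted p = 0.241). An acceptor form of bath-44, which encodes a BTB and MATH domain protein, had 0.128, 0 and 0.103 in the double mutant and 0.586, 0.562 and 0.366 in rbm-5(n5132) (adjusted p = 0.187). A donor form of sup-26, which encodes an RNA-binding protein, had 0.277, 0.248 and 0.489 in the double mutant and 0.753, 0.691 and 0.680 in rbm-5(n5132) (log2 −2.28, adjusted p = 0.187), but with all other forms of the locus as the alternative the log2 value was 1.01. The hpo-3 exon had 0.562, 0.679 and 0.609 in the double mutant and 0.762, 0.880 and 0.827 in rbm-5(n5132) (adjusted p = 0.176), and it passed with the replicate block (adjusted p = 0.0346).

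An exon of H24K24.2 (chromosome V, 922747 to 922904) had a share of 1 in each double mutant library and 0.783, 0.733 and 0.373 in rbm-5(n5132) (log2 3.20 ± 0.76, adjusted p = 0.0940). In the n5119 background its uaf-1(n4588) effect was −1.57, and the difference of 4.77 had an unadjusted p of 0.000589 and an adjusted p of 0.401. Among ribosome and calcium channel genes, an intron of hbs-1, the orthologue of a ribosome rescue factor, had a share of 0.830, 0.835 and 0.872 in the double mutant and 1 in each rbm-5(n5132) library (adjusted p = 0.296). An acceptor form of cca-1, a T-type calcium channel gene, had 0.131, 0 and 0.222 in the double mutant and 0.644, 0.300 and 0.711 in rbm-5(n5132) (adjusted p = 0.187). None of the differences in this paragraph passed.

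An exon of the splicing target gene tos-1 did not pass the test. This exon, at chromosome V, 9343501 to 9343567, had a share of 0.827, 0.799 and 0.636 in the double mutant and 1, 0.820 and 0.709 in rbm-5(n5132), and the groups overlapped (log2 −2.38 ± 1.79, adjusted p = 0.903). In each pair of same-numbered libraries the double mutant had the lower share, and with the replicate block the adjusted p was 0.864. In wild type the uaf-1(n4588) effect on it was −6.48 ± 1.79 (adjusted p = 0.170), and with n5119 −4.09 (adjusted p = 0.646), so neither passed. The difference of 4.10 between n5132 and wild type had an unadjusted p of 0.128. Start events gave 114 and 68.0 FPKM in the double mutant, where replicate 2 does not list the gene alone, and 0, 60.8 and 78.3 FPKM in rbm-5(n5132). The direction of its level depended on the transcript end used, at log2 2.39 from starts and −1.17 from ends. The muscle potassium channel regulator gene unc-93 stood at 16.36, 3.48 and 2.99 FPKM in the double mutant and 8.17, 3.03 and 5.43 FPKM in rbm-5(n5132), with the strains overlapping. The small U2AF subunit gene uaf-2 was listed alone in 1 rbm-5(n5132) library only and could not be tested.

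Calls were counted by kind of event, and the rates of the kinds were not compared by a test. Of 872 skipped exons tested, 6 were called with less inclusion and none with more. At an unadjusted p under 0.05 the skipped exons numbered 30 with more and 44 with less inclusion. Of 313 acceptor events, 3 were called in each direction, and of 586 retained introns, 2 with more and 1 with less retention. Of 446 donor events 1 was called, and of 201 exon groups 2, both with less inclusion. Retained introns at an unadjusted p under 0.05 numbered 30 with more and 14 with less retention. Over the 261 introns with a value in all 6 libraries, the median share retained was 0.565, 0.590 and 0.586 in the double mutant and 0.474, 0.560 and 0.569 in rbm-5(n5132). The double mutant medians lay close to those of rbm-5(n5132) replicates 2 and 3, and the lowest was rbm-5(n5132) replicate 1.

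The number of listed events per library was compared for each kind, and no kind passed after adjustment. Skipped exons listed numbered 1545, 1570 and 1582 in the double mutant and 1422, 1492 and 1499 in rbm-5(n5132). Alternative exon ends numbered 2633, 2598 and 2544 in the double mutant and 2427, 2453 and 2425 in rbm-5(n5132). Groups of adjacent retained introns numbered 113, 112 and 103 in the double mutant and 77, 87 and 96 in rbm-5(n5132). For these 3 kinds every double mutant library was above every rbm-5(n5132) library, which gives p = 0.1 in an exact permutation test, two-sided, the smallest p that 3 against 3 libraries allow (adjusted p = 0.14 over the event kinds). Retained introns, at 2098, 2127 and 2084 in the double mutant and 2032, 2109 and 1989 in rbm-5(n5132), overlapped (exact permutation p = 0.3). Groups of skipped exons, at 397, 399 and 387 in the double mutant and 362, 379 and 397 in rbm-5(n5132), overlapped too (exact permutation p = 0.3). Transcripts were assembled in each library on its own, and how many events an assembly lists also moves with depth, which is unknown.

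Few gene levels differed. A gene level was the sum of start FPKM over loci with 1 reference gene, tested as log2(FPKM + 1). Of 8343 genes tested, 3 passed (0.036%), 2 higher (0.024%) and 1 lower (0.012%) in the double mutant, and 440 had an unadjusted p under 0.05, or 5.27%, 162 higher (1.94%) and 278 lower (3.33%). C07D10.6 (chromosome II, 7379321 to 7379583) was at 109 and 139 FPKM in replicates 2 and 3 of the double mutant, is not listed alone in replicate 1, and was listed at 0 in each rbm-5(n5132) library and in the other 12 libraries (adjusted p = 2.12e-10). Its transcript ends, however, were above 0 also in 1 uaf-1(n4588) library, at 348 FPKM, and in 2 libraries of the n5119 double mutant, at 289 and 421 FPKM, and the call ended when ends were used (adjusted p = 0.430). The astacin metalloprotease gene nas-20 (chromosome V, 11470925 to 11472309) had 1.70, 2.07 and 2.47 FPKM in the double mutant and 0, 0.0762 and 0 FPKM in rbm-5(n5132) (adjusted p = 0.0261). Y45G12B.3 (chromosome V, 2688455 to 2696254) was listed at 0 in the 2 double mutant libraries that list it alone and was at 17.9, 11.8 and 10.9 FPKM in rbm-5(n5132) (adjusted p = 0.0210). With the replicate block the last 2 genes no longer passed (adjusted p = 0.0681 and 0.0590). Nor did nas-20 without any 1 rbm-5(n5132) library (adjusted p = 0.0523 to 0.106), or Y45G12B.3 without replicate 1 or 3 of rbm-5(n5132) (0.0675 and 0.0583). With only the contrast's libraries fitted, both ended (0.342 for nas-20 and 0.156 for Y45G12B.3). The nas-20 call also ended with scaled libraries (0.0691) and with a pseudocount of 0.1 (0.0695), and only 11 alternatives could test it. Each of the 3 called genes passed the filter of 1 FPKM only through the strain where it was higher.

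The genes next in rank are given as values. The ribonuclease H gene rnh-1.3 (chromosome I, 9710088 to 9710745) had 2.33, 3.57 and 7.199 FPKM in the double mutant and 123, 85.0 and 98.8 FPKM in rbm-5(n5132) (log2 −4.35 ± 0.74, adjusted p = 0.0619). The rbm-5(n5132) libraries stood above all other strains for this gene, of which the next highest was replicate 1 of uaf-1(n4588), at 59.0 FPKM. F09E5.8 (chromosome II, 5350669 to 5351993) had 42.03, 37.4 and 33.9 FPKM in the double mutant and 73.6, 100 and 88.3 FPKM in rbm-5(n5132) (log2 −1.18 ± 0.20, adjusted p = 0.0619). The spliced leader trans-splicing gene sna-3 had 54, 65.1 and 71.3 FPKM in the double mutant and 106, 136 and 128 FPKM in rbm-5(n5132) (log2 −0.95 ± 0.19, adjusted p = 0.165). In the other backgrounds sna-3 was lower with uaf-1(n4588) by the same test, with log2 −1.34 and adjusted p = 0.00862 in wild type and log2 −1.21 and adjusted p = 0.0173 with n5119.

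The G1 kinase gene cdk-4 had 29.0, 30.7 and 42.2 FPKM in the double mutant and 52.6, 97.2 and 83.3 FPKM in rbm-5(n5132) (log2 −1.15, adjusted p = 0.174). The E protein gene hlh-2 had 64.1, 58.1 and 186 FPKM in the double mutant and 247, 356 and 315 FPKM in rbm-5(n5132) (log2 −1.76, adjusted p = 0.174), but its ends gave −0.48. Both genes were named from those without overlap of the strains, which held for 16% of all genes tested, and neither passed. The EF-hand gene efhd-1 had 115, 75.7 and 76.7 FPKM in the double mutant and 283, 246 and 231 FPKM in rbm-5(n5132) (log2 −1.52, adjusted p = 0.174). The other lower genes named by the rule were F21C10.9, T09F5.1, nyn-1 and rbg-2, with log2 values between −2.56 and −0.72 and none passing.

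Among genes with higher values, fbxc-25, fbxb-6 and fbxa-143 belong to the F-box families, which encode substrate adaptors of ubiquitin ligases. The F-box gene fbxc-45 had a lower value and a smaller p, at 5.07, 3.51 and 3.21 FPKM in the double mutant and 9.89, 15.05 and 15.05 FPKM in rbm-5(n5132) (log2 −1.54 ± 0.27, adjusted p = 0.0749). The gene fbxc-25 had 56.1, 66.7 and 71.0 FPKM in the double mutant and 30.9, 33.7 and 33.6 FPKM in rbm-5(n5132) (log2 0.95 ± 0.23, adjusted p = 0.271). The gene fbxb-6 had 14.3, 21.6 and 25.9 FPKM in the double mutant and 5.75, 9.31 and 10.0 FPKM in rbm-5(n5132), and fbxa-143 at 6.27, 7.53 and 10.1 FPKM in the double mutant and 2.66, 3.25 and 2.71 FPKM in rbm-5(n5132). The bZIP gene zip-11 had 8.75, 10.0 and 25.3 FPKM in the double mutant and 3.87, 3.53 and 5.24 FPKM in rbm-5(n5132) (log2 1.46 ± 0.38, adjusted p = 0.352). None of these passed. Each was named from the genes without overlap of the strains, which were 16% of all genes tested in 1 direction or the other. The largest of these values, log2 3.98, belonged to serp-1.2, at 4084, 1356 and 1272 FPKM in the double mutant and 42.5, 817 and 49.4 FPKM in rbm-5(n5132), and its adjusted p was 0.386. The other higher genes named by the rule were Y71H2AM.25, acl-5, H11L12.1, nhr-47 and F22D6.9, with log2 values between 0.72 and 1.79.

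For some genes the uaf-1(n4588) effect with n5132 differed from that in another background. Against wild type 6 of 7622 genes passed (0.0787%), 1 with a higher (0.0131%) and 5 with a lower effect (0.0656%). Against n5119 4 of 7496 passed (0.0534%), 1 higher (0.0133%) and 3 lower (0.04%). At an unadjusted p under 0.05 these comparisons held 4.61% and 2.96% of the genes. C07D10.6 and Y45G12B.3, described above, were among them. The C07D10.6 differences repeat its difference from rbm-5(n5132), since its starts were listed at 0 in every other strain. E01G4.5 (chromosome II, 13472401 to 13473995), a known target of endogenous small RNAs of the ERGO-1 pathway, had 42.9, 66.3 and 57.6 FPKM in the double mutant and 43.5 and 50.7 FPKM in rbm-5(n5132). It was at 266 and 318 FPKM in uaf-1(n4588), against 28.0, 32.6 and 21.3 FPKM in wild type. In the n5119 background it had 324 and 268 FPKM in the double mutant, against 13.97, 31.1 and 27.8 FPKM in rbm-5(n5119). The gene was thus several fold higher with uaf-1(n4588) in the other 2 backgrounds and within the spread with n5132, and the effects were log2 0.22, 3.38 and 3.62. The differences passed, with −3.17 against wild type (adjusted p = 0.0354) and −3.40 against n5119 (adjusted p = 0.0365). Leaving out 1 library ended the call against wild type in 6 of 8 cases (adjusted p = 0.0584 to 0.138) and the call against n5119 without any 1 library of the n5132 double mutant (0.0617 to 0.175). Scaling the libraries to 1 median ended both calls (adjusted p = 0.692 and 0.9997). The call against n5119 also ended with no filter (adjusted p = 0.0677) and with values at 0 as missing (0.0576). Fitting only the contrast's libraries (0.140) or no intensity trend (0.0659) ended that call too.

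Y37E3.30 (chromosome I, 2149825 to 2151826) showed the same order of levels. It had 56.8, 56.1 and 55.3 FPKM in the double mutant and 31.3, 63.5 and 51.98 FPKM in rbm-5(n5132), whereas uaf-1(n4588) had 289, 311 and 302 FPKM and wild type 57.8, 37.04 and 27.3 FPKM. The n5119 double mutant had 366, 185 and 226 FPKM, against 16.0, 30.2 and 34.0 FPKM in rbm-5(n5119). The difference in effect was −2.99 against n5119 (adjusted p = 0.0442, and 0.153 with the replicate block) and −2.67 against wild type (adjusted p = 0.0659). The call ended in 10 of 12 cases with 1 library left out (adjusted p = 0.0597 to 0.175). It also ended with scaled libraries (adjusted p = 0.9997), with transcript ends (0.369), with only the contrast's libraries fitted (0.140), with no filter (0.0917), with no intensity trend (0.0680) and with values at 0 as missing (0.0576).

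Another 3 genes were low in the double mutant and in wild type and high in rbm-5(n5132) and in uaf-1(n4588). The eggshell proteoglycan gene cpg-2 (chromosome III, 7102092 to 7103990) had 10.1, 12.2 and 24.3 FPKM in the double mutant and 44.2, 75.3 and 70.5 FPKM in rbm-5(n5132), with 83.5, 53.4 and 68.9 FPKM in uaf-1(n4588) and 5.54, 19.4 and 13.5 FPKM in wild type. T24D1.3 had 2.38, 2.10 and 3.17 FPKM in the double mutant and 7.55, 11.9 and 11.4 FPKM in rbm-5(n5132), with 13.9, 10.5 and 12.7 FPKM in uaf-1(n4588) and 0.647, 3.41 and 1.81 FPKM in wild type. The gene nyn-1, which encodes a protein with a NYN ribonuclease domain, had 10.0, 12.9 and 13.6 FPKM in the double mutant and 21.98, 44.9 and 33.1 FPKM in rbm-5(n5132), with 20.97, 23.9 and 25.8 FPKM in uaf-1(n4588) and 7.72, 12.96 and 8.73 FPKM in wild type. Estimated uaf-1(n4588) effects had opposite signs in these backgrounds, but neither effect passed on its own. In wild type the adjusted p was 0.101, 0.0557 and 0.192 in the order given. With n5132 it was 0.282, 0.327 and 0.174. Differences in effect against n5119 did not pass (adjusted p = 0.9995, 0.686 and 0.9995). Those against wild type were −4.48, −3.94 and −2.55, each at adjusted p = 0.0271. With the replicate block cpg-2 and T24D1.3 no longer passed (adjusted p = 0.0624 for both), and each of the 3 calls ended with 1 library left out in 7 or more of 12 cases (adjusted p = 0.0525 to 0.127). Scaling the libraries to 1 median also ended all 3 calls, with adjusted p = 0.268 for cpg-2, 0.166 for T24D1.3 and 0.635 for nyn-1. In F02E9.5 (chromosome I, 8424993 to 8426092) the level was 122 and 114 FPKM in the double mutant and 140 and 109 FPKM in rbm-5(n5132), with 118, 135 and 138 FPKM in uaf-1(n4588) and 14.43 and 16.17 FPKM in wild type (difference −3.07, adjusted p = 0.01003, 0.0624 with the replicate block and 0.166 with scaled libraries), but transcript ends gave −0.28. None of these 4 genes passed in the comparison of the double mutant with rbm-5(n5132) itself.

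**Figure D4:**
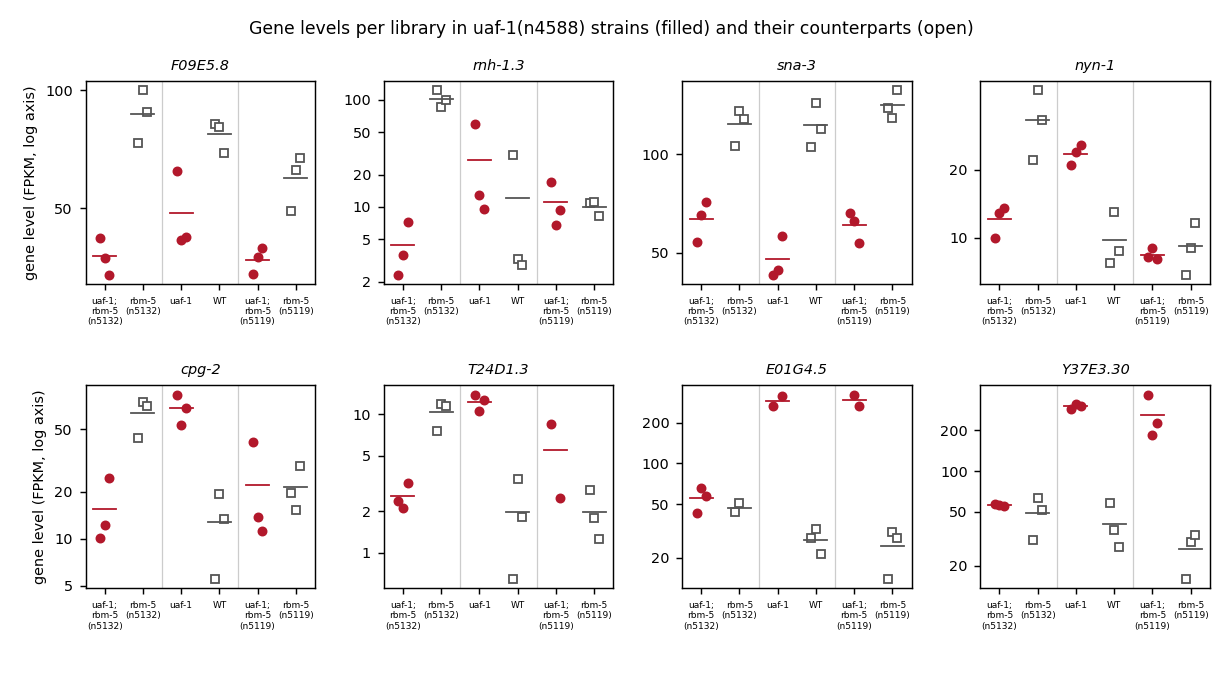
Gene level in FPKM per library on a log axis for 8 named genes, with strains that carry uaf-1(n4588) filled and their counterparts open, in the n5132, wild-type and n5119 backgrounds from left to right; bars are strain means, and libraries that do not list the gene alone have no point. E01G4.5 is at 42.9 to 66.3 FPKM in the n5132 double mutant, against 266 and 318 FPKM in uaf-1(n4588).

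Gene lists were described by counts, since none of their members passed the test. Over all genes tested, 3360 were higher and 4983 lower in the double mutant, with a median log2 of −0.10. Scaling the libraries to the same median start level moved that median to 0.32. The counts of higher and lower members below are against 0 and without scaling, and each list median is to be set against −0.10. Of 8 genes for 3′ splice site recognition 4 could be tested, all higher, with a median of 0.28. The SF3b gene sftb-1 had 115, 134 and 144 FPKM in the double mutant and 101, 94.6 and 96.0 FPKM in rbm-5(n5132) (adjusted p = 0.909). Of 15 core spliceosome genes tested 8 were higher (median 0.09), and of 12 splicing regulators 5 were higher (median −0.05). Nonsense-mediated decay genes had 3 of 7 higher (median −0.05). No spliceosome or splicing regulator gene passed the test.

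Ribosomal protein genes were lower in 30 of 32 tested, with a median of −0.59, or −0.09 after scaling, when the median of all genes was 0.32. The gene rps-18 had 3140, 1696 and 1766 FPKM in the double mutant and 2768, 3220 and 3043 FPKM in rbm-5(n5132). Replicate 1 of the double mutant lay within the range of rbm-5(n5132) or above it, and its replicates 2 and 3 lay below. The sums over the list were 1.03e+05, 3.67e+04 and 3.09e+04 FPKM in the double mutant and 1.08e+05, 8.22e+04 and 7.57e+04 FPKM in rbm-5(n5132). No ribosomal protein gene passed. Of the 32 tested, 4 had an unadjusted p under 0.05 in limma, all lower, against 5.27% of all genes tested, with 3.33% lower.

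Cell type lists showed no call either. Of 15 body wall muscle genes 10 were lower (median −0.28), of 7 epidermal genes 6 (median −0.42), of 9 germline precursor genes 7 (median −0.30) and of 7 apical matrix genes 6 (median −0.28). Neuronal genes had 4 of 8 lower (median 0.04), intestinal genes 5 of 7 (median −0.18) and pharyngeal genes 4 of 6 (median −0.15). Of the maternal fate regulators 6 of 11 were higher (median 0.05), and of the early zygotic factors 4 of 6 (median 0.22). The mesoderm gene ceh-51, for instance, had 69.1, 103 and 106 FPKM in the double mutant and 55.9, 95.5 and 69.95 FPKM in rbm-5(n5132). Cuticle collagens had 3 of 3 lower (median −0.72), heat shock genes 3 of 5 higher (median 0.13), trans-splicing genes 2 of 3 lower (median −0.07) and UNC-93 channel complex genes 2 of 3 lower (median −0.19). The medians of the UNC-93 complex, intestine, body wall muscle, pharynx, epidermis, apical matrix, germline precursor, cuticle collagen and ribosomal protein lists lay below the median of all genes both with and without scaling. Those of the other tested lists lay above it both ways.

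**Figure D5:**
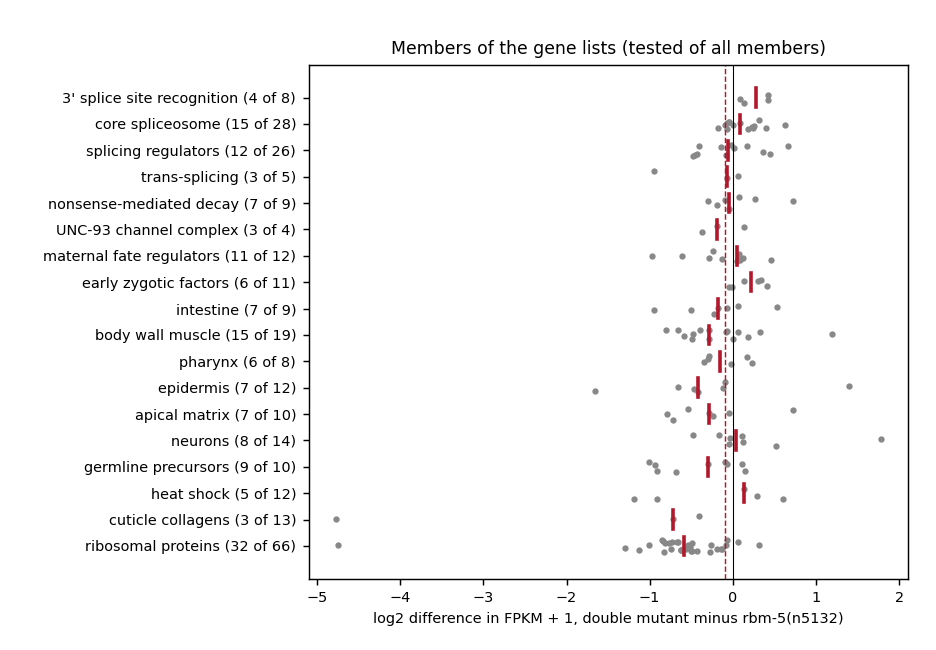
Each grey point is 1 tested gene of a list, placed by its log2 difference, double mutant minus rbm-5(n5132); red bars are list medians and the dashed line is the median of all genes, −0.10. The ribosomal protein median lies at −0.59 and that of 3′ splice site recognition at 0.28.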

How the data were processed

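Total RNA of embryos was sequenced in 18 libraries of 6 strains, 3 each. The authors deposited a list of events per library with an FPKM value for each transcript start, transcript end and splicing form. Alignment used TopHat2 2.0.12 and Bowtie2 against WBcel235, per the submitters' processing notes; the assembler and event caller are not given in the sources used here. Depth is unknown, since the files hold no counts.

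From these values, start FPKM was summed over loci that name 1 gene, and events were matched between libraries by coordinates. For exon ends the alternative was every other listed form that shares the opposite end. Genes and events that 2 or more libraries of each strain list, with a mean of at least 1 FPKM were fitted with limma 3.58.1 (R 4.3.3) over all 18 libraries, with 1 mean per strain, on log2(FPKM + 1) or log2((form + 1) / (alternative + 1)). All p-values in the text that are called adjusted come from limma with Benjamini-Hochberg adjustment over all genes or events tested, with a threshold of 0.05, unless an exact permutation test is named. The procedure was run on simulated data with normal noise around the mean of each gene or event. These data held no strain with a form fixed at 0, so they do not cover the 14 called events of that kind.

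Replicate numbers were taken from the labels. Same-numbered libraries of the 2 strains deviated together across 4182 genes (r = 0.414, 0.188 and 0.223, against at most 0.169 between different numbers). The labels do not say what a number stands for, and the margin is small, so a pairing of the libraries is uncertain. The main p-values leave it out, and the fit with the replicate block is an alternative. Across 1427 events the same correlations were lower (r = 0.161, 0.0566 and 0.0823, against at most 0.0781 between different numbers), so any pairing rests on the gene levels. Other alternatives changed the filter, the pseudocount, scaling, the treatment of 0, the samples fitted, the alternative forms and the end of the transcript used. The use of all other forms of a locus as the alternative was added after seeing the data.

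The members and gene lists were chosen with earlier results of these data known. Named were the mutated genes and their known targets, all called genes and events, up to 12 further genes and 12 further events in each direction by smallest unadjusted p without overlap of the strains, and up to 4 genes per list by mean level. Coordinates are those of WBcel235.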

Additional observations from a re-analysis of the deposited data

Results flagged for a closer look

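Each result here was singled out because the uaf-1(n4588) effect in the n5132 background differed from that in another background by the limma test of the difference. For C07D10.6 the difference was 6.96 on the log2 scale against both wild type and n5119, and it did not pass with transcript ends (adjusted p = 0.9996). Starts of this gene were listed at 0 in every other strain, so both values repeat its difference from rbm-5(n5132). Here too the gene passed the filter of 1 FPKM only through the double mutant. For Y45G12B.3 the difference was −7.51 against n5119, where the double mutant had 10.76 and 13.04 FPKM and rbm-5(n5119) was listed at 0. For E01G4.5 it was −3.17 against wild type and −3.40 against n5119, and for Y37E3.30 −2.99 against n5119. For F02E9.5 it was −3.07, for T24D1.3 −3.94, for cpg-2 −4.48 and for nyn-1 −2.55, each against wild type. For the B0207.5 acceptor event it was −4.64 against n5119, with both forms at or below 0.119 FPKM in the double mutant and rbm-5(n5132), and the alternative form at 31.2 and 24.4 FPKM in 2 rbm-5(n5119) libraries. What sets these genes and this event apart was not tested.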

How the results depend on the processing

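Over all results and alternatives, 1171 values kept their direction and side of the threshold, 163 were weaker, 45 moved, 31 were stronger and 13 changed sign. Called genes in the main comparison numbered 3, against 31 with no filter, 1 with values at 0 as missing, 1 with the replicate block, 23 with replicates 2 and 3 only and 2 to 10 without 1 library. Differences in gene effects against wild type numbered 6, against 2 with scaled libraries, 16 with no filter, 12 with values at 0 as missing, 3 with the replicate block, 18 with replicates 2 and 3 only, 11 with no intensity trend and 1 to 9 without 1 library. Against n5119 they numbered 4, against 0 with values at 0 as missing (177 at an unadjusted p under 0.05 in limma), 11 with replicates 2 and 3 only, 2 with end events, 2 with no intensity trend and 0 to 6 without 1 library. Called events numbered 18, against 8 with the rest of the locus as the alternative and 11 to 18 without 1 library. The rest of the locus changes the forms of exon-end events only. The lost calls included F49E2.5, C46C11.4, F07A11.4, ipla-3, C56A3.6 and D1054.9 (adjusted p = 0.0665 each). Their forms and log2 values were unchanged, so these losses do not show dependence on their alternative forms. The replicate block gave 16 called events, of which 14 were among the 18. Of the 18, 7 were lost with only the contrast's libraries fitted and 6 with a pseudocount of 0.1. With replicates 2 and 3 only, 9 of the 18 passed, 7 were lost, and F49E2.5 and C46C11.4 could not be tested. Differences in event effects against wild type numbered 0, against 2 with replicates 2 and 3 only and 0 to 2 without 1 library. Against n5119 they numbered 1, against 2 with a pseudocount of 0.1, 4 with the contrast's libraries only, 5 with replicates 2 and 3 only, 0 to 2 without 1 library, and 0 with a mean of at least 5 FPKM, the replicate block, the share scale or the rest of the locus. Signs changed for rbm-5 with end events (−0.21), for tos-1 with end events (−1.17), for uaf-1 without replicate 3 of the double mutant (−0.054, and up to 0.23 without another library), for unc-93 with replicates 2 and 3 only (−0.27) and without 1 library (−0.55 to 0.51), and for sup-26 with the rest of the locus (1.01). The events of tpk-1, C53H9.2, Y6G8.2 and Y53F4B.62 had a difference of 0 on the share scale. The double mutant listed fewer starts and ends, but with entries above 0 only it listed 98.7 more starts and 7.33 more ends on average. The cause of these changes was not tested. Depth is unknown, so a form at 0 cannot be told from one below detection.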
